A study of Mus musculus with 4 samples.

Results

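Stabilization of beta-catenin in endothelial cells with Norrin intact was read from 2 of the 4 RNA-seq libraries of a study of mouse retina at postnatal day 10, by setting the library labelled as beta-catenin stabilization against the WT library. The first, called stabilized here, carried Ctnnb1flex3/+ and Pdgfb-CreER. The flex3 allele yields a stabilized beta-catenin once Cre has removed its floxed exon, and Pdgfb regulatory sequence directs the tamoxifen-dependent CreER to endothelial cells. The labels give no CreER for WT, so the presence of the transgene and the stabilization cannot be told apart. The other libraries were the Ndp knockout (NdpKO) and the stabilized knockout (NdpKO;Ctnnb1flex3/+;Pdgfb-CreER). All mice were of mixed strain, with at least C57BL6 and 129 in the background, and all received 20 µg of 4HT, the active form of tamoxifen, at postnatal day 3. Every library came from whole retina RNA pooled over 3 batches, and a batch held 4 to 8 retinas of 2 to 4 mice. With 1 library a group there is no spread between animals, no test was possible and no p-value is given.

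Of 23278 genes in the deposited table, 12905 were compared. These had a usable status in all 4 libraries, a mean over the 4 of at least 1 FPKM (a level corrected for transcript length and for library size) and no short RNA symbol. Differences are log2 ratios of FPKM plus 0.5, which understate differences of low genes, so that a log2 ratio of 0.58 stands for 1.5-fold. Intervals are those deposited with each FPKM, and "apart" means that the intervals of stabilized and WT did not overlap. They do not cover how mice vary, and at equal FPKM they were about as wide in the stabilized library as in WT, although its depth was estimated to be lower, so "apart" is a description only.

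Norrin, the product of Ndp, is secreted in the retina and binds Frizzled-4 with Lrp5 or Lrp6 and Tspan12 on endothelial cells, which stops the destruction of beta-catenin. Beta-catenin then enters the nucleus and acts with TCF/LEF factors. In retinal and brain vessels this pathway is known for directing growth of the vascular layers and for the blood-retina and blood-brain barriers, with claudin-5 in tight junctions, transporters in place of free passage, and little of the diaphragm protein Plvap.

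The labels were first read against the genes that they name. Ndp stood at 2.98 FPKM in WT and 2.35 FPKM in stabilized, with overlapping intervals, against 0.873 and 0.869 FPKM in the Ndp knockout and stabilized knockout. Ctnnb1 was at 144 and 156 FPKM in WT and stabilized. Loss of an exon does not show in a value per gene, so Ctnnb1 checks nothing about recombination. The X-inactivation gene Xist read 135 (WT), 130 (stabilized), 1.25 (Ndp knockout) and 1.28 FPKM (stabilized knockout), so sex was alike within each pair and differed between the pairs. The tissue was as labelled by its markers, with all 22 rod genes and all 24 Muller glia genes above the minimum and 2 of 13 lens genes. The deposited FPKM summed to 423695 in WT and 405525 in stabilized. An estimate from the most frequent ratio of value to interval width among low values put the depth of stabilized at 0.426 of that of WT. For the Ndp knockout and stabilized knockout it gave 0.536 and 0.577.

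At least 2-fold higher in stabilized than in WT were 38 genes (0.294% of those compared), of which 36 had intervals apart (0.279% of all). At least 2-fold lower were 16 genes (0.124%), of which 9 had intervals apart (0.0697%). Over the 12709 genes of known transcript length, with the trend on length removed, these counts were 39 and 9. At 1.5-fold 155 genes were higher (1.2%; 0.891% with intervals apart) and 135 lower (1.05%; 0.573%). Whatever the fold, intervals were apart for 232 higher genes (1.8%) and 206 lower genes (1.6%). The median over all genes was -0.02, and the central 98% lay between -0.59 and 0.62. Genes of blood vessels made up much of the higher group. Of the 38, 20 belonged to 11 lists of vascular genes that together hold 147 of the 12905 genes (52.6% against 1.14%), 3 were globin genes and 1, Apobec3, lies near Pdgfb. Several of the 20, among them Slco1c1, Lama4, Acta2 and Hspg2, were below 1 FPKM in WT. These passed the minimum through the libraries where they are high, which partly sets the share of 52.6%. None of the 16 lower genes was in a vascular list. The lists were drawn up with earlier results of these data known, so the counts describe these libraries and do not test the lists. Some genes, such as Eng, Tie1, Nid2, Aplnr and Pdgfra, count in more than 1 list.

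**Figure D1:**
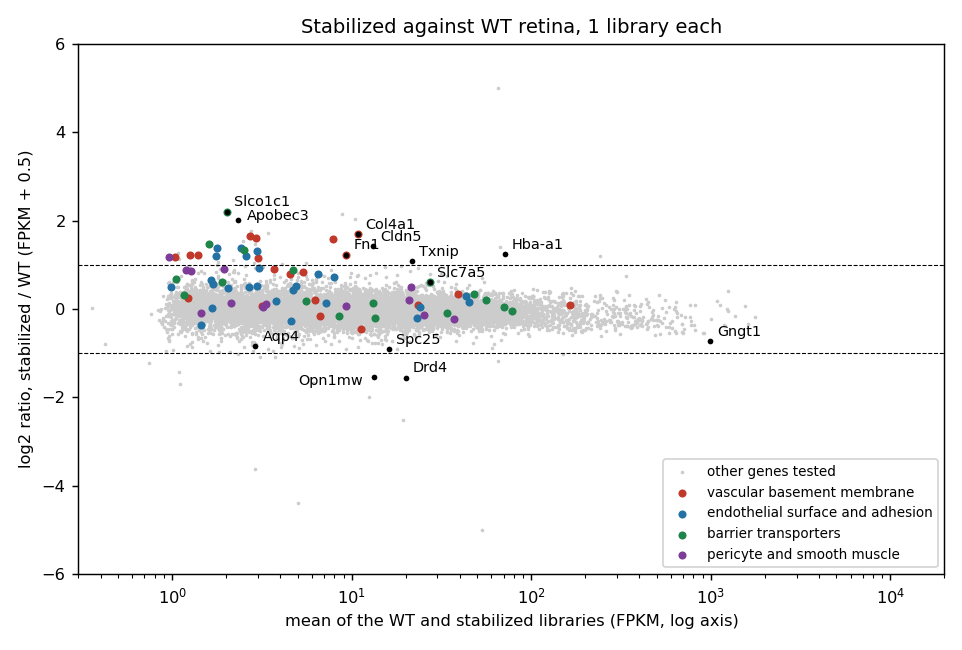
Each point is a gene, placed by its mean FPKM in the WT and stabilized libraries (log axis) and its log2 ratio of stabilized to WT; dashed lines mark 2-fold, and genes past the vertical axis are drawn at its edge. Vascular lists are coloured and black points are other labelled genes: Slco1c1 (2.20), Col4a1 (1.70) and Cldn5 (1.43) stand at the top, and Drd4 (-1.56) and Opn1mw (-1.55) at the bottom.

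The sequence before the start of 4 genes is shown for the barrier genes Cldn5 and Slco1c1, the basement membrane gene Nid1 and the dopamine receptor gene Drd4, which are among the higher and lower genes described here. Each is the 250 bases upstream of the RefSeq start on GRCm38.p6 (mm10), 5′ to 3′ on the strand of the gene, in lower case. Capitals mark the letters CCGGAA, the core bound by ETS factors such as Ets1 and Erg, or their reverse complement TTCCGG.
Cldn5 (chr16:18776597-18776846, plus strand): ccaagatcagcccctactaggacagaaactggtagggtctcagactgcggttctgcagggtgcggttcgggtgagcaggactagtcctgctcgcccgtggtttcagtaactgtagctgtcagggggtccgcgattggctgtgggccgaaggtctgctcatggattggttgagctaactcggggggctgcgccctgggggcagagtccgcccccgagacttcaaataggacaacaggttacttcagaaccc
Slco1c1 (chr6:141524104-141524353, plus strand): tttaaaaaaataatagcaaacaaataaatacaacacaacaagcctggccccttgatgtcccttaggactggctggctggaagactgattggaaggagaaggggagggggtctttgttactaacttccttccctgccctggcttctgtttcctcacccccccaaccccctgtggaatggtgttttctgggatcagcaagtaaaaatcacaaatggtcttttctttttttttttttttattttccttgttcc
Nid1 (chr13:13437352-13437601, plus strand): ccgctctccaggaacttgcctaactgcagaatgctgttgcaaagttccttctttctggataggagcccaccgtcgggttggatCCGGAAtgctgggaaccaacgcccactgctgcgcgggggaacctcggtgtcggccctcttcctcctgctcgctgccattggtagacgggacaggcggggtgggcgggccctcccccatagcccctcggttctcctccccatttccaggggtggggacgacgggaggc
Drd4 (chr7:141291768-141292017, plus strand): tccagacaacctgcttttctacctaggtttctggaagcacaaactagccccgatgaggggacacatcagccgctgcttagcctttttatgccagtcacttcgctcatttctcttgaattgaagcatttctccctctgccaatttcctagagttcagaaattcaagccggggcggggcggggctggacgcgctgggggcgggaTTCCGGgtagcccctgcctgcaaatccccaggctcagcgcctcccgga

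Neither the TCF/LEF letters CTTTGAT nor the SOX letters ACAATG occurred on either strand in these windows, and the ETS letters occurred in those of Nid1 and Drd4. A window was found for 9027 of the 12905 genes. Among genes at least 1.5-fold higher, 1 of 93 windows held the TCF/LEF letters, 0 of 93 the SOX letters and 14 of 93 the ETS letters (15.1%). Over all 9027 the shares were 2.14%, 5.72% and 22.4%, and over all 32851 RefSeq windows they were 3.21%, 10.7% and 12%. The basement membrane list had 14 windows, of which 0 held the TCF/LEF letters and 1 the ETS letters. These shares describe letters in 250 bases and say nothing of binding there or elsewhere.

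The vascular basement membrane, the collagen and laminin sheet that endothelial cells and pericytes lay down together, gave the highest median of all lists, 0.87 over 20 genes. At least 1.5-fold higher were 12 of 20, each with intervals apart, and none was 1.5-fold lower. Col4a1 and Col4a2, the chains of the main type IV collagen network, lie head to head on chromosome 8, with starts that overlap by 22 bases. Col4a1 was at 4.81 FPKM in WT (interval 4.06 to 5.55) and 16.7 FPKM in stabilized (14.6 to 18.9), a log2 ratio of 1.70. Col4a2 was at 3.69 FPKM in WT and 12.1 FPKM in stabilized (1.59). Both chains were thus higher by a similar ratio. Nid1, encoding nidogen-1, which ties laminin to type IV collagen, was at 1.05 FPKM in WT (0.782 to 1.32) and 4.40 FPKM in stabilized (3.66 to 5.15), a log2 ratio of 1.66. Its relative Nid2 was at 0.552 and 1.96 FPKM (1.22).

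Among laminins, Lama4, the alpha chain of the endothelial laminins, was at 0.634 FPKM in WT and 2.14 FPKM in stabilized (1.22). The beta and gamma chains Lamb1 (0.90) and Lamc1 (0.84) had lower ratios. Lama5, the alpha chain of mature vessels, lay at 1.08 and 1.36 FPKM with overlapping intervals (0.24). The difference thus varied from chain to chain within the laminin family. Fibronectin (Fn1) was at 5.35 FPKM in WT and 13.2 FPKM in stabilized (1.23), the proteoglycan gene Bgn at 1.19 and 4.64 FPKM (1.61), and perlecan (Hspg2) at 0.447 and 1.63 FPKM (1.17). Vwa1 (1.15), encoding a partner of perlecan, and Col18a1 (0.78), the source of endostatin, made up the 12.

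With Norrin intact, the genes of collagen binding and processing did not follow the chains. Sparc, encoding a collagen-binding chaperone, was at 160 FPKM in WT and 169 FPKM in stabilized (0.08), and the collagen chaperone gene Serpinh1 at 22.5 and 24.1 FPKM (0.10). The hydroxylase genes Plod1 (0.20), P4ha2 (0.08) and Plod2 (-0.16) had overlapping intervals. P4ha1 was lower, at 13.1 FPKM in WT and 9.45 FPKM in stabilized (-0.45, intervals apart). In the Ndp knockout pair the ratios were 0.48 (Sparc), 0.42 (Serpinh1), 0.25 (Plod1), -0.09 (P4ha2), 0.09 (Plod2) and -0.29 (P4ha1). Agrn, which neurons and glia also make, lay at 34.1 and 43.5 FPKM (0.35). Of the 12 higher genes, 3 were below 1 FPKM in WT and passed the minimum through the stabilized libraries. Col15a1 did not pass (0.479 and 0.719 FPKM).

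Whole-retina RNA cannot tell more endothelial cells from more RNA per endothelial cell, which holds for every vascular gene here. Genes of the endothelial surface had a median of 0.51 over 25, with 9 at least 1.5-fold higher and none lower. Intervals were apart for 8 genes of the list, all on the higher side and with Flt1 (0.53) among them, and overlapped for the higher genes Ramp2 (0.73) and Ly6c1 (0.66). Cdh5, the cadherin of endothelial junctions, was at 0.754 FPKM in WT (0.529 to 0.980) and 2.79 FPKM in stabilized (2.18 to 3.39), a log2 ratio of 1.39. Eng, a TGF-beta family co-receptor whose locus overlaps another gene, was at 1.11 and 3.71 FPKM (1.38). Cd93 (1.31), Tie1 (1.21) and Eltd1 (1.21), all endothelial receptors, were next. Pecam1, present on all endothelium, was at 1.94 FPKM in WT and 4.12 FPKM in stabilized (0.92, intervals apart).

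Not all endothelial genes were higher. Kdr, the main VEGF receptor, was at 39.0 FPKM in WT and 47.7 FPKM in stabilized (0.29), and Podxl at 42.5 and 47.3 FPKM (0.15); both are also made outside vessels. Egfl7 was at 6.83 and 7.52 FPKM (0.13). Emcn, a sialomucin of veins and capillaries, was at 1.69 and 1.21 FPKM (-0.36), S1pr1 at 5.07 and 4.14 FPKM (-0.26) and Itm2a at 24.8 and 21.4 FPKM (-0.20), each with overlapping intervals. The list thus spanned -0.36 to 1.39. A further 8 members did not reach the minimum mean, and no share over all such genes was counted. Of these 8, 7 had a higher value in stabilized than in WT. Von Willebrand factor (Vwf), named after its values were seen, was among them at 0.179 FPKM in WT and 1.25 FPKM in stabilized.

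Only 7 of 23 endothelial transcription factors reached the minimum. Sox18, which acts in vessel and lymphatic development, was at 1.20 FPKM in WT and 3.14 FPKM in stabilized (1.10), and Ets1 at 1.16 and 2.71 FPKM (0.96). Epas1, the hypoxia-inducible factor of endothelium, was at 6.13 and 8.93 FPKM (0.51, intervals apart). All 16 factors below the minimum had a higher value in stabilized than in WT, at levels where a single value is imprecise. The share over all genes below the minimum was not counted. Foxf2 and Foxq1, known from brain endothelium and pericytes and named after their values were seen, read 0.507 FPKM (Foxf2) and 0.366 FPKM (Foxq1) in WT, against 1.48 and 1.52 FPKM in stabilized. In the stabilized knockout these were at 1.61 and 1.22 FPKM, against 0.184 and 0.0662 FPKM in the Ndp knockout. Sox17, an endothelial SOX factor, was at 0.399 FPKM in WT and 0.711 FPKM in stabilized.

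**Figure D2:**
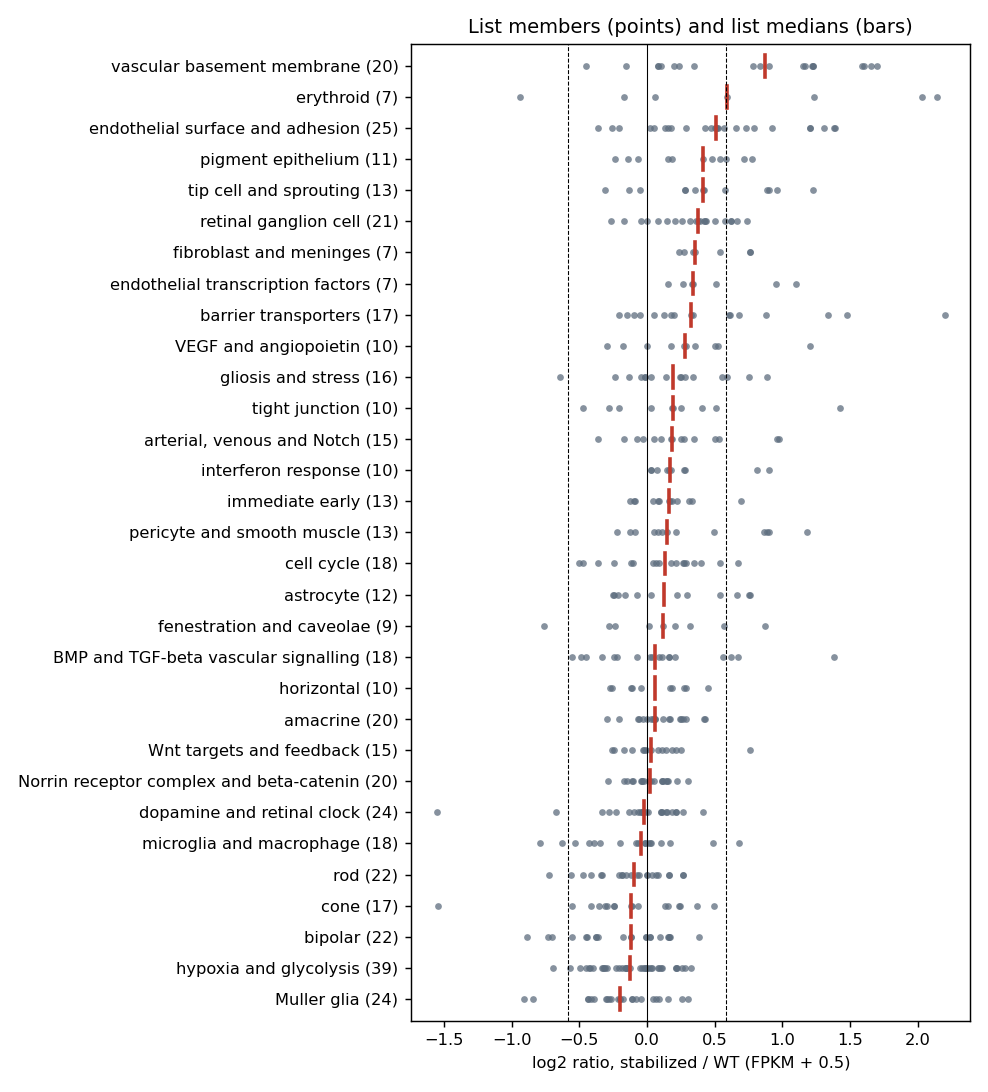
Points are the log2 ratios of stabilized to WT of the compared members of each list (number in brackets, lists of at least 5), red bars are list medians and dashed lines mark 1.5-fold. The basement membrane list has the highest median (0.87), followed by erythroid (0.59) and endothelial surface genes (0.51), while Muller glia genes have the lowest of those shown (-0.20).

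In the tight junction list a single gene stood out. Cldn5, encoding the sealing claudin of the blood-retina barrier (chromosome 16, 18776847 to 18778262, plus strand, GENCODE M21 on mm10), was at 6.91 FPKM in WT (5.18 to 8.63) and 19.4 FPKM in stabilized (15.8 to 23.1), a log2 ratio of 1.43. Of the other 9 compared genes, none was 1.5-fold apart, and the list median was 0.19. Tjp1, the scaffold ZO-1 shared by many cell contacts, was at 18.9 and 22.6 FPKM (0.25). Cldn12, which many cell types express, was lower at 23.0 FPKM in WT and 16.5 FPKM in stabilized (-0.47, intervals apart). Ocln, encoding occludin, was below the minimum at 0.461 and 0.596 FPKM.

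Barrier transporters had 7 of 17 members at least 1.5-fold higher, 5 with intervals apart, and a median of 0.33. Slco1c1, the carrier of thyroid hormone and organic anions, had the highest ratio of all named genes, at 0.396 FPKM in WT (0.242 to 0.550) and 3.63 FPKM in stabilized (2.83 to 4.42), 2.20 on the log2 scale. The glutamine transporter gene Slc38a5 was at 0.611 and 2.60 FPKM (1.48). Mfsd2a, which imports lysophospholipids that carry docosahexaenoic acid and restrains transcytosis, was at 1.20 and 3.80 FPKM (1.34). Of the 7 higher transporters, 3 (Slco1c1, Slc38a5 and Slco2b1) were below 1 FPKM in WT and passed the minimum through the libraries where they are high.

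Amino acid carriers of higher level followed. Slc7a1, for cationic amino acids, was at 3.18 FPKM in WT and 6.28 FPKM in stabilized (0.88), and Slc7a5, for large neutral amino acids and thyroid hormone, at 21.5 and 33.1 FPKM (0.61). Slc40a1, the iron exporter ferroportin, was at 1.39 and 2.38 FPKM (0.60) and Slco2b1 at 0.693 and 1.42 FPKM (0.68), both with overlapping intervals. Other members of high level did not reach 1.5-fold. Slc3a2, encoding the partner chain of Slc7a5, was at 42.5 and 53.8 FPKM (0.34). The glucose transporter gene Slc2a1 was at 79.9 FPKM in WT and 77.1 FPKM in stabilized (-0.05) and the transferrin receptor gene Tfrc at 35.2 and 32.9 FPKM (-0.09). Below the minimum, the efflux pump gene Abcb1a was at 0.287 FPKM in WT and 0.893 FPKM in stabilized. The counts of these lists rest on genes of low level: with a minimum mean of 5 FPKM, 4 basement membrane, 2 endothelial surface and 1 barrier transporter gene were 1.5-fold higher, with medians of 0.28, 0.15 and 0.09.

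**Figure D3:**
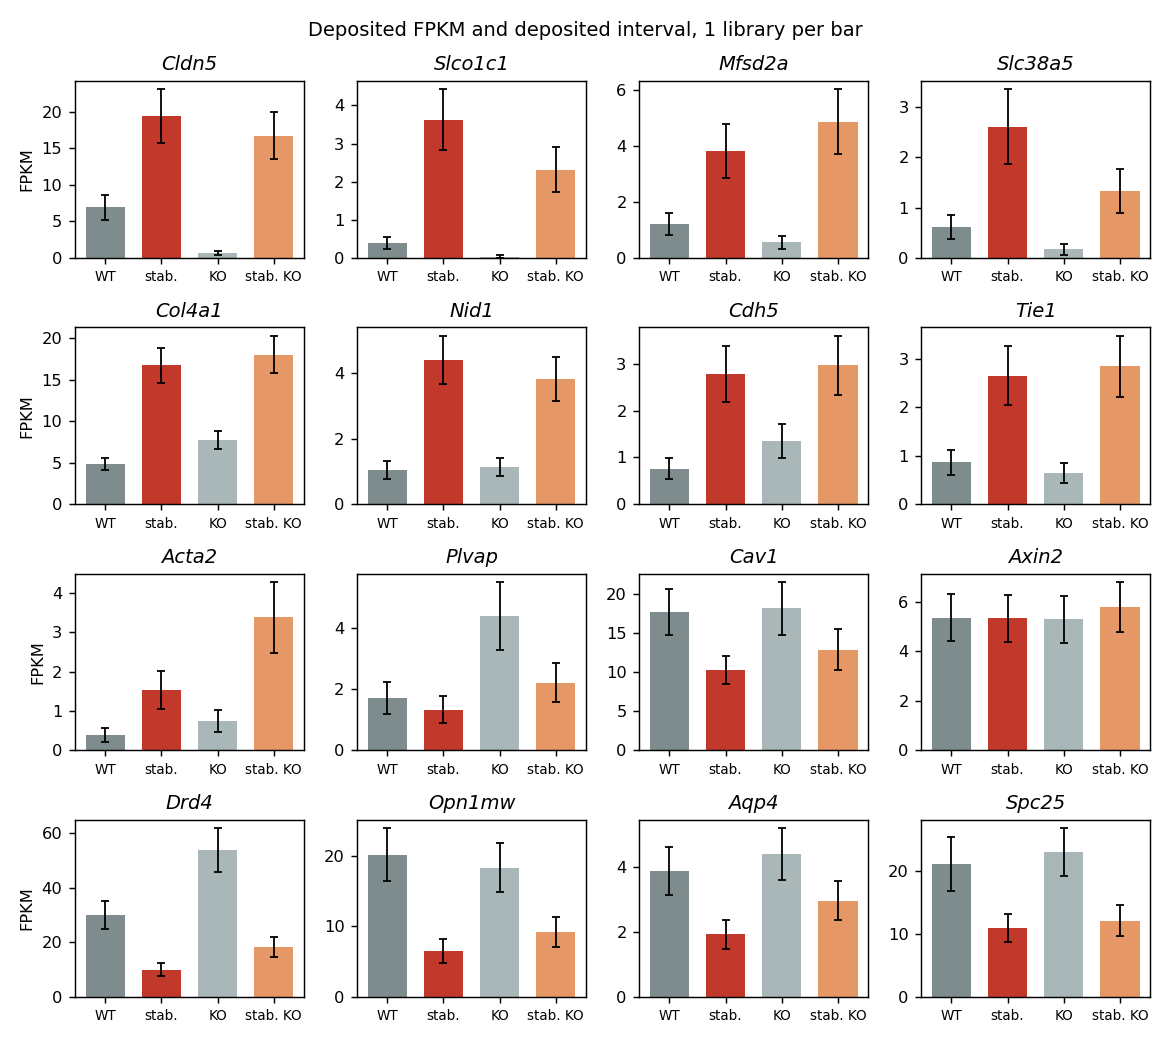
Bars are the deposited FPKM of 16 genes in the WT, stabilized, Ndp knockout (KO) and stabilized knockout libraries, 1 library per bar, and error lines are the deposited intervals. Barrier, basement membrane, endothelial and smooth muscle genes are higher in both stabilized libraries than in their own comparison library, Axin2 is level in all 4 (5.30 to 5.80 FPKM), and the last row is lower in both.

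The genes of caveolae and fenestrations, which serve vesicular passage across endothelium, lay on both sides of 0. Ptrf, encoding cavin-1 of the caveolar coat, was at 0.879 FPKM in WT and 2.02 FPKM in stabilized (0.87), and Ehd2, at the caveolar neck, at 4.66 and 7.15 FPKM (0.57, intervals apart). Cav1, the main caveolin, was lower at 17.7 FPKM in WT (14.8 to 20.7) and 10.3 FPKM in stabilized (-0.76, intervals apart), and Cav2 was at 5.64 and 4.72 FPKM (-0.23). Cav1 is also made by Muller glia, and the retina has no separate value for each cell type. Plvap was at 1.72 and 1.33 FPKM with overlapping intervals (-0.28). Of the 9 genes compared, 1 was thus higher and 1 lower by 1.5-fold, with a median of 0.12.

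Of 13 genes of tip cells and sprouting, 4 were at least 1.5-fold higher and none lower (median 0.41). They were Nid2, Pdgfb, Igfbp3 and the apelin receptor gene Aplnr, at 1.56 FPKM in WT and 3.52 FPKM in stabilized (0.96). Igfbp3, encoding a binding protein of insulin-like growth factors, was at 1.96 and 4.05 FPKM (0.89). Apln, the ligand of the apelin receptor, was at 3.63 and 4.99 FPKM (0.41), Angpt2 at 3.52 and 4.64 FPKM (0.35) and the Notch ligand gene Dll4 at 1.27 and 2.14 FPKM (0.57), all with overlapping intervals. Adm, encoding adrenomedullin, was at 2.01 and 1.52 FPKM (-0.31). In the arterial, venous and Notch list 2 of 15 were higher, Gja4 (0.668 and 1.80 FPKM, 0.98), the connexin of arterial endothelium, and Aplnr, while the Notch targets Hey1 (-0.03), Hey2 (-0.07) and Hes1 (0.10) lay near 0. Nid2 and Gja4 were below 1 FPKM in WT and passed the minimum through the libraries where they are high.

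Mural cells, the pericytes and smooth muscle around vessels, were represented by 13 compared genes, of which 4 were 1.5-fold higher, 5 had intervals apart and none was lower (median 0.14). Acta2, smooth muscle actin, was at 0.392 FPKM in WT (0.221 to 0.562) and 1.53 FPKM in stabilized (1.05 to 2.01), a log2 ratio of 1.19. Pdgfrb, the receptor through which endothelial PDGF-B recruits pericytes, was at 1.21 and 2.70 FPKM (0.90), Abcc9, a channel subunit of pericytes, at 0.691 and 1.71 FPKM (0.89) and Notch3 at 0.759 and 1.79 FPKM (0.86). Rgs5, a pericyte regulator of G protein signals, was at 17.6 and 25.02 FPKM (0.50). Other smooth muscle genes, Tagln (0.14), Myl9 (0.11) and Lmod1 (-0.09), did not reach 1.5-fold, and 9 members, Myh11, Cspg4 and Des among them, stayed below the minimum. Of the 4 higher genes 3 were below 1 FPKM in WT.

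The pathway itself showed little difference in whole retina. All 20 genes of the Norrin receptor complex and the beta-catenin machinery lay within 1.5-fold, between -0.29 (Ndp) and 0.30 (Dvl2), with a median of 0.02. The receptor gene Fzd4 was at 2.15 FPKM in WT and 1.89 FPKM in stabilized (-0.15), Tspan12 at 6.83 and 6.02 FPKM (-0.17) and Lrp5 at 3.06 and 3.47 FPKM (0.16). Of 15 Wnt targets and feedback genes, 1 was higher. This was Tcf7, a TCF/LEF factor and itself a Wnt target, at 0.707 FPKM in WT and 1.54 FPKM in stabilized (0.76, intervals apart). Tcf7 was thus below 1 FPKM in WT and passed the minimum through the libraries where it is high. Axin2 was at 5.37 and 5.35 FPKM (-0.00), Nkd1 at 7.99 and 6.65 FPKM (-0.25) and Apcdd1, an inhibitor found in retinal vessels, at 12.1 and 14.5 FPKM (0.25). Lef1 and the feedback gene Notum, the latter named after its values were seen, were below the minimum. Of the 12 list members below it, 6 had a higher value in stabilized than in WT and 6 a lower one. Lef1 read 0.396 FPKM in WT and 0.527 FPKM in stabilized, and Notum 0.0952 and 0.379 FPKM.

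Among angiogenic signals, Vegfa was at 107 FPKM in WT and 87.0 FPKM in stabilized (-0.30, overlapping), and of the 10 genes of its list Tie1 alone was 1.5-fold higher. Tie1, at 0.864 FPKM in WT and 2.65 FPKM in stabilized, passed the minimum through the libraries where it is high. Flt1, encoding a VEGF receptor that also acts as a decoy, was at 2.34 and 3.60 FPKM (0.53) and Nrp2 at 4.26 and 6.23 FPKM (0.50), both with intervals apart. In the BMP and TGF-beta list 3 of 18 were higher. Besides Eng these were the receptor genes Tgfbr2, at 0.918 and 1.76 FPKM (0.67), and Acvrl1, encoding the endothelial receptor ALK1, at 0.912 and 1.68 FPKM (0.62). The BMP target Id2 was lower at 28.4 and 19.2 FPKM (-0.56, apart), Id1 was at 26.6 and 18.9 FPKM (-0.48, overlapping) and Bmpr1a at 20.5 and 14.9 FPKM (-0.45, apart). Tgfbr2 and Acvrl1 were below 1 FPKM in WT and passed the minimum through the libraries where they are high. Id3 (-0.24) also lay below 0, and Id4 (30.9 and 31.6 FPKM, 0.03) did not.

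Among red cell genes, the compared globin genes were higher in stabilized, as many vascular genes were. The alpha-globin gene Hba-a1 was at 42.1 FPKM in WT and 99.8 FPKM in stabilized (1.24, intervals apart), and of the 7 erythroid genes compared 4 were higher, all globins with near-identical copies whose separate values are uncertain. The summed FPKM of the list, globins included, was 122 in WT, 210 in stabilized, 125 in the Ndp knockout and 229 in the stabilized knockout. The erythroid genes Gata1, Hbb-y and Hbb-bh1 were listed at 0 in WT and in stabilized. Slc25a37, a mitochondrial iron importer, was lower (4.93 and 2.33 FPKM, -0.94). Of 6 platelet genes only Gp1bb was compared (0.21). The part that blood in the vessels had in the vascular values was not tested.

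Among neurons, the lists of photoreceptors and bipolar cells had medians slightly below that of all genes. In cones 1 of 17 genes was 1.5-fold apart. Opn1mw, the middle-wavelength cone opsin, was at 20.1 FPKM in WT (16.4 to 23.9) and 6.56 FPKM in stabilized (4.86 to 8.26), a log2 ratio of -1.55. The short-wavelength opsin gene Opn1sw was at 86.5 and 82.5 FPKM (-0.07). In rods 1 of 22 was lower, the transducin gamma gene Gngt1, at 1227 and 744 FPKM (-0.72), with the rod list at a median of -0.10.

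Bipolar cells had 3 of 22 lower genes and 6 with intervals apart on the lower side (median -0.12). Lrtm1 was at 6.76 and 3.43 FPKM (-0.89), Gng13, the G protein subunit of ON bipolar cells, at 47.9 and 28.6 FPKM (-0.73) and Sebox at 13.8 and 8.31 FPKM (-0.70). Loci of Lrtm1 and Gng13 overlap another gene. Amacrine and horizontal cells had no member 1.5-fold apart among 20 and 10 genes.

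Retinal ganglion cell genes lay on the higher side, with 4 of 21 at least 1.5-fold higher, 6 with intervals apart and a median of 0.37. The neurofilament gene Nefm was at 25.4 FPKM in WT and 42.8 FPKM in stabilized (0.74), and the ganglion cell transcription factors Pou4f2 at 3.72 and 6.18 FPKM (0.66) and Pou4f1 at 8.12 and 12.8 FPKM (0.62). Sncg was at 120 and 99.5 FPKM (-0.27) and Stmn2 at 114 and 101 FPKM (-0.17). In the Ndp knockout pair no ganglion cell gene was 1.5-fold apart and the median was 0.18.

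Drd4, the dopamine D4 receptor gene of photoreceptors (chromosome 7, 141292006 to 141295001), had the lowest ratio in the list of dopamine and clock genes. It was at 30.02 FPKM in WT (24.9 to 35.1) and 9.88 FPKM in stabilized (7.47 to 12.3), a log2 ratio of -1.56, and at 53.9 and 18.2 FPKM in the Ndp knockout and stabilized knockout (-1.54). Rora was at 18.8 and 11.6 FPKM (-0.68), with -0.14 in the Ndp knockout pair. The other 22 genes of the list lay within 1.5-fold, the clock genes Per1 (0.22), Clock (-0.28) and Nr1d1 (0.27) among them. Dio2, the enzyme that activates thyroid hormone, was at 3.87 and 1.77 FPKM (-0.94).

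Muller glia, which span the retina and touch its vessels, had the lowest median of the lists with at least 5 compared genes, -0.20. Of the 24 genes, 18 lay below 0, against 6960 of all 12905 genes. In the Ndp knockout pair the median was -0.04. Spc25 was at 21.1 FPKM in WT (16.8 to 25.5) and lay within 8.80 to 13.2 FPKM in stabilized (-0.91, intervals apart). Aqp4, the water channel of glial endfeet, was at 3.88 FPKM in WT (3.14 to 4.62) and 1.94 FPKM in stabilized (-0.85). Kcnj10, the potassium channel of the same endfeet, was at 5.51 and 4.01 FPKM (-0.41, overlapping), whereas Vim was at 89.7 and 111 FPKM (0.31). Of the 16 stress genes of glia compared, 3 were higher, Mt2 (5.23 and 10.1 FPKM), Gfap (4.02 and 7.10 FPKM) and A2m (0.654 and 1.23 FPKM), and 1, Cntf, was lower (2.40 and 1.35 FPKM). Intervals overlapped for Mt2 and for Cntf, whose locus overlaps another gene. Gfap (0.75) also marks astrocytes, for which Pdgfra (5.06 and 8.91 FPKM, 0.76) and Gja1 (2.60 and 4.41 FPKM, 0.66) were higher and none of 12 was lower.

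Among the remaining lists, hypoxia and glycolysis genes had a median of -0.12 over 39, with 4 apart on the lower side and Ak4 alone past 1.5-fold (6.62 and 3.89 FPKM, -0.70). In microglia 1 of 18 was higher, Spp1 (4.77 and 7.94 FPKM), and 2 were lower, Lyz2 (6.89 and 3.77 FPKM) and P2ry12 (3.13 and 1.85 FPKM), the last with overlapping intervals and a shared locus. Pigment epithelium, an adjoining tissue, had 3 of 11 higher, Pmel (4.85 and 8.68 FPKM), Rpe65 (2.90 and 5.09 FPKM) and Rgr (7.25 and 11.1 FPKM). Its summed FPKM was 92.4 in WT, 109 in stabilized, 102 in the Ndp knockout and 88.1 in the stabilized knockout, and its part in other results was not tested. In fibroblast and meningeal genes 2 of 7 were higher, Pdgfra and Col6a2 (1.79 and 3.38 FPKM). Cell cycle genes had 1 of 18 higher, Mcm6 (2.75 and 4.67 FPKM), interferon genes 2 of 10, Ifitm3 (2.01 and 4.19 FPKM) and Bst2 (0.952 and 2.06 FPKM), both with overlapping intervals, and immediate early genes 1 of 13, Egr1 (5.50 and 9.20 FPKM). The 2 lens genes had a median of -0.48. For comparison with the list counts here and above, 1.2% of all genes were 1.5-fold higher and 1.05% lower.

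Several of the highest genes belong to no list. Gdpd3, a lysophospholipase D, was at 1.32 FPKM in WT and 5.52 FPKM in stabilized (1.72), and at 1.06 and 5.13 FPKM in the Ndp knockout pair (1.85). Prnd, encoding the prion-like protein doppel that brain endothelium makes during development, was at 1.01 and 3.91 FPKM (1.54). Klhl33 was at 1.30 and 4.51 FPKM (1.47), Pglyrp1, a peptidoglycan recognition protein, at 0.426 and 1.72 FPKM (1.26) and the serpin gene Serpina3h at 0.498 and 1.69 FPKM (1.14). The ratio of each was at least 1.25 in the Ndp knockout pair too.

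Since CreER was driven by Pdgfb sequence, the genes around Pdgfb were read separately. Pdgfb (chromosome 15) was at 1.14 FPKM in WT, 2.57 FPKM in stabilized, 1.11 FPKM in the Ndp knockout and 2.92 FPKM in the stabilized knockout. Of 22 other genes compared within 500 kb, 3 were 1.5-fold higher in stabilized and none lower, against 1.2% and 1.05% of all genes. Apobec3, a cytidine deaminase that restricts retroviruses, was at 0.623 FPKM in WT (0.394 to 0.852) and 4.01 FPKM in stabilized (2.96 to 5.05), and at 0.515 and 9.68 FPKM in the Ndp knockout and stabilized knockout (2.01 and 3.33). The deposited locus of Apobec3 is shared with another gene. Cbx7, a Polycomb subunit, was at 11.7 and 19.5 FPKM (0.72), and at 8.76 and 18.8 FPKM in the Ndp knockout pair (1.06). Nptxr, which shares its locus with Npcd, was at 7.24 and 12.4 FPKM (0.74, overlapping), with a ratio of 0.11 in the Ndp knockout pair. The median of the 22 was 0.02, and none of the 5 genes compared within 500 kb of Ctnnb1 was 1.5-fold apart. Whether the transgene adds reads to Pdgfb or alters its neighbours was not tested.

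**Figure D4:**
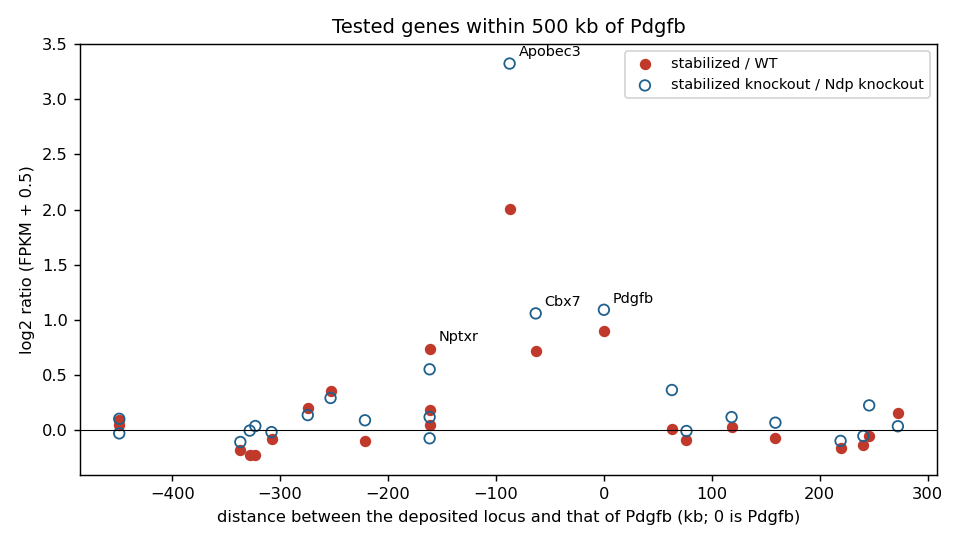
Log2 ratios of the compared genes within 500 kb of Pdgfb against the distance between the loci, with filled points for stabilized over WT and open points for stabilized knockout over Ndp knockout. Apobec3 (2.01 and 3.33), Pdgfb itself and Cbx7 (0.72 and 1.06) are high in both pairs, and Nptxr (0.74 and 0.11) with Norrin intact only. The median of the 22 genes other than Pdgfb is close to 0.

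The same allele pair was measured without Norrin in the Ndp knockout and stabilized knockout, which share no library with WT and stabilized. There, 57 genes were at least 2-fold higher (0.442%) and 12 lower (0.093%), and at 1.5-fold 1.22% were higher and 0.488% lower. Intervals were apart for 1.29% of genes on the higher side and 0.496% on the lower. Of the 38 genes 2-fold higher with Norrin intact, 23 were 2-fold higher there too (60.5% of the 38 and 40.4% of the 57), 34 had the same sign, 30 had intervals apart and the median was 1.19. Of the 16 lower genes 4 were 2-fold lower there (25% of the 16 and 33.3% of the 12), 11 had the same sign and 3 had intervals apart, with a median of -0.30. At 1.5-fold 77 of 155 higher genes (49.7%) and 20 of 135 lower genes (14.8%) were called the same way in both. Over all genes the ratios had a Pearson r of 0.48 and a Spearman rho of 0.52, across genes that are not independent.

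All 12 basement membrane genes that were higher with Norrin intact were also 1.5-fold higher in the other pair, as were all 9 endothelial surface genes and all 7 barrier transporters. Of the 4 mural genes 3 were, and of the 4 ganglion cell genes none. The minimum is a mean over all 4 libraries, so genes low in WT pass through the libraries where they are high. This holds for 3 of the 12, 2 of the 9 and 3 of the 7, and it partly sets these counts. Basement membrane ratios were mostly smaller there (median 0.73 against 0.87), with Col4a1 at 7.77 and 18.0 FPKM (1.16). Cldn5 was at 0.674 FPKM in the Ndp knockout and 16.7 FPKM in the stabilized knockout (3.87 against 1.43 with Norrin intact). Its level in the 2 libraries with stabilization was thus similar, with intervals that overlap (15.8 to 23.1 and 13.5 to 20.0), from unequal starting levels. Slc39a8, a zinc and manganese carrier named after its values were seen, was at 0.977 and 1.35 FPKM with Norrin intact (0.33) and at 0.174 and 1.56 FPKM without (1.61). Differences between the pairs were not tested.

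**Figure D5:**
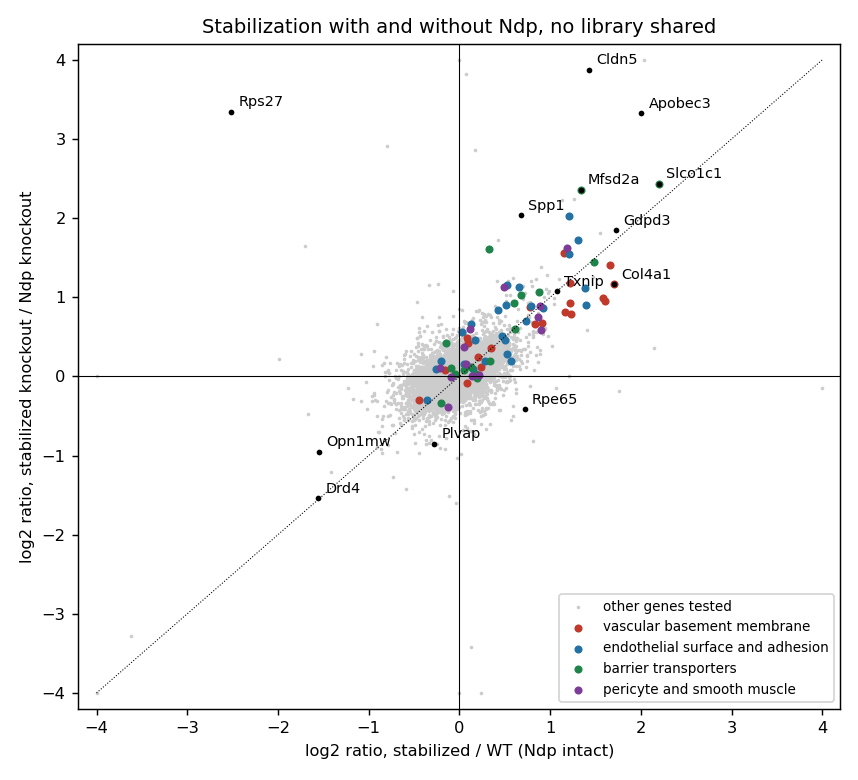
Each point is a gene, with the log2 ratio of stabilized to WT on the horizontal axis and of stabilized knockout to Ndp knockout on the vertical axis; the dotted line marks equal ratios, and genes past an axis are drawn at its edge. Vascular lists are coloured, black points are other labelled genes, Cldn5 (1.43 and 3.87) lies above the line, and Rps27 (-2.52 and 3.34) lies far from it.

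Transcript length moved with the ratios of the whole pair. Genes with the shortest transcripts (124 to 1384 bases, 1269 genes) had a median of -0.18 in stabilized against WT and -0.03 in the Ndp knockout pair. They included 55 of the 126 genes at least 1.5-fold lower whose transcript length is known. Genes 1.5-fold higher had a median transcript of 3466 bases, lower ones 1629 and all compared 3414. Of all 12905 genes compared, 6960 lay below 0. Histone genes did so in 23 of 29 cases (median -0.27). Ribosomal protein genes, which are short and have many copies, did so in 78 of 81 (-0.31, and 0.01 in the Ndp knockout pair). The lowest genes Rps27 (33.1 and 5.37 FPKM) and Rpl26 (20.2 and 4.73 FPKM) are of this kind, with wide and overlapping intervals. With the trend on length removed, 9 genes were 2-fold lower in place of 16. That count leaves out genes without a known length, the lower genes Gm14440, Gm14308 and Erdr1 among them. Drd4, Opn1mw, Spc25 and Aqp4 had intervals apart, while those of Cox7a1 (4.34 and 1.79 FPKM) and Gdf1 (1.81 and 0.362 FPKM) overlapped. Hsd17b2 (1.24 and 0.241 FPKM, -1.23) and Cthrc1 (2.29 and 0.940 FPKM, -0.95) were also apart, with ratios of -0.15 and 0.13 in the Ndp knockout pair.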

How the data were processed

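RNA of whole retina was measured in 4 libraries, 1 per genotype, prepared by TruSeq RNA Sample Prep Kit v2 per the labels' protocols. TopHat, Cuffdiff and mm10 are named in the submitters' processing notes, without versions. The annotation, read totals, strandedness and what level the intervals have were not given in the sources used here. The authors deposited FPKM per gene with a lower and an upper bound and a status. FPKM are relative within a library, so a difference in abundant RNA shifts all other values.

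Ratios were computed as log2 of FPKM plus 0.5. Of 23278 genes, 145 lacked status OK in all 4 libraries, 9983 had a mean below 1 FPKM and 245 were short RNA genes (Mir, Snor, Scarna, Rnu), which left 12905. Of these, 2480 share their deposited locus with another gene and are uncertain. Not all are marked in the text: Nid2, Abcc9, Nefm, Rora, Pmel, Txnip, Opn1sw and Gdf1 are also among them. Whole fragments were not recovered. Relative depth was estimated from the most frequent squared ratio of value to SD among low values, with SD read from the upper bound. At equal FPKM the deposited intervals were about as wide in every library (0.989 of WT precision in the stabilized library over 714 low genes). The intervals thus do not carry this difference in depth.

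Groups were taken from the labels, and every value column belonged to a sample. The text names genes from the 30 highest and 15 lowest ratios without provisional symbols, members of 33 lists at least 1.5-fold apart, 13 genes set by name and compared genes within 500 kb of Pdgfb or Ctnnb1. List members between those folds, and members below the minimum, are given as examples chosen after their values were seen. Members and lists were chosen with earlier results of these data known. GENCODE M21 (mm10) gave coordinates and transcript lengths for 98.5% of compared genes, and RefSeq (GRCm38.p6) the upstream windows. Alternatives were pseudocounts of 0.1 and 1, other minimum means, equal totals, re-centring, any status, short RNA genes kept, intervals apart and 1.5-fold, and, chosen after seeing the data, removal of a trend on transcript length and leaving out shared loci. A few genes that the rule names are not reported here. Counting of ratios was tested on simulated data. Python 3.11.15, numpy 2.4.6, pandas 2.3.3 and matplotlib 3.10.9 were used.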

Additional observations from a re-analysis of the deposited data

Results flagged for a closer look

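Of the genes compared, 5 differed by at least 1.5-fold in opposite directions in the pair with Norrin intact and the Ndp knockout pair. With 1 library a group the difference between the pairs was not tested. Rps27 had a log2 ratio of -2.52 with Norrin intact and 3.34 without, 1810007I06Rik -1.70 and 1.65, 1810035I16Rik -0.91 and 0.66, Klk1b22, a kallikrein gene, -0.80 and 2.92, and Clcf1, a cytokine gene, 0.82 and -0.82. In stabilized against WT the deposited intervals overlapped for all 5, and in the Ndp knockout pair they were apart for Rps27 and Klk1b22. Rps27, 1810007I06Rik and 1810035I16Rik share their deposited locus with another gene. Klk1b22 was at 0.674 FPKM in WT, 0.176 FPKM in stabilized, 0.189 FPKM in the Ndp knockout and 4.70 FPKM in the stabilized knockout.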

How the results depend on the processing

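The counts of genes at least 2-fold higher and lower are given in the order stabilized against WT higher and lower, then stabilized knockout against Ndp knockout higher and lower, and were 38, 16, 57 and 12 as reported. With a pseudocount of 0.1 they were 63, 29, 81 and 22, and with 1 they were 25, 12, 39 and 9. A minimum mean of 5 FPKM left 12, 8, 13 and 6, and with no minimum the last was 21. Keeping short RNA genes gave 92, 95, 104 and 61, and 1.5-fold in place of 2-fold gave 155, 135, 157 and 63. The lower counts were 9 and 7 with intervals apart, 9 and 6 with the trend on transcript length removed and 7 and 4 without shared loci. Equal totals and re-centring moved no count by over 1.5 times, and equal totals put the median of all genes at 0.04. For most of these settings the construction (fewer or more genes, a stricter or looser rule) sets the change. For the pseudocount the cause was not tested. With the length trend removed, genes without a known length also left the counts, and the rest of the change was not tested.

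With a minimum mean of 5 FPKM the list medians were 0.28 for basement membrane, 0.15 for endothelial surface and 0.09 for barrier transporters, with 4, 2 and 1 higher genes. Under the alternatives 57 of 726 list counts moved by over 1.5 times and 34 of 329 list medians by 0.1 or more. Of ratios of named genes, 1215 of 1218 moved little, none reversed, and Slco1c1 (2.91), Hspg2 (1.66) and Hsd17b2 (-1.97) moved with a pseudocount of 0.1. No paired analysis was possible because each group is 1 library, and no library could be left out. Depth limits the genes below 1 FPKM, among them most endothelial transcription factors.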

Other observations

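The genes in these paragraphs were named after their values were seen, and their ratios are descriptions. The first are single genes of lipid handling outside the lists, and no list of such genes was counted. Abca1, the cholesterol exporter, was at 9.19 FPKM in WT and 16.0 FPKM in stabilized (log2 ratio 0.77) and at 7.42 and 12.9 FPKM in the Ndp knockout and stabilized knockout (0.75). Srebf1, a regulator of fatty acid synthesis whose locus overlaps another gene, was at 22.8 and 40.0 FPKM (0.80), and at 21.2 and 34.5 FPKM in the other pair (0.69). Fasn, fatty acid synthase, was at 20.4 and 29.4 FPKM (0.52), while Scd1, a desaturase, was at 1.13 and 0.960 FPKM (-0.16). Aldh3a2, fatty aldehyde dehydrogenase, was at 15.8 and 30.7 FPKM in WT and stabilized and at 14.8 and 30.1 FPKM in the Ndp knockout pair.

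Other single genes outside the lists are given for their ratios with Norrin intact. Reln, encoding reelin, was at 12.5 FPKM in WT, 25.2 FPKM in stabilized, 16.3 FPKM in the Ndp knockout and 23.6 FPKM in the stabilized knockout. Sema7a was at 14.9 and 27.5 FPKM in WT and stabilized (0.86), and L1cam at 9.81 and 17.5 FPKM (0.81), with ratios of 0.37 and 0.56 in the Ndp knockout pair. Plxnd1, the semaphorin receptor of endothelium, was at 1.68 and 4.00 FPKM (1.05), and Txnip, a thioredoxin-binding protein, at 13.8 and 29.6 FPKM (1.08), with ratios of 0.99 and 1.08 there.

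On chromosome 2, 17 compared genes with provisional symbols in a cluster of related genes all lay below 0 (median -0.45, and -0.26 in the Ndp knockout pair), 5 of them by 1.5-fold. Gm14440, whose locus overlaps another gene, was at 5.77 FPKM in WT and 4.77 FPKM in the Ndp knockout, and at 0.0115 and 0.0425 FPKM in stabilized and stabilized knockout. The near-identical X-linked genes Xlr3a, Xlr3b and Xlr3c were all 1.5-fold higher (median 0.89, and 0.63 in the other pair), with Xlr3b at 3.44 and 7.64 FPKM.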
